A study of Mus musculus with 12 samples.

Results

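Voltage-gated sodium and calcium channels are built from subunits, and the genes for these subunits were followed across the cell classes of the newborn mouse forebrain. Members were taken by symbol: every gene whose symbol begins with Cacna, Cacnb or Cacng, and every gene named Scn followed by a number and the letter a or b. This gave 40 of the 55335 genes in the files: 10 sodium channel α subunit genes, 4 sodium channel β subunit genes, 10 calcium channel α1 subunit genes, 4 calcium channel α2δ subunit genes, 4 calcium channel β subunit genes and 8 Cacng genes.

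Nuclei had been isolated from forebrains of mice at P1 (postnatal day 1) and their RNA had been sequenced nucleus by nucleus in 12 animals of the strain labelled MYT1L S710fsX, 1 library per animal. There were 8 wild-type (WT) libraries, 5 from male and 3 from female mice, and 4 heterozygous (Het) libraries, 3 from male mice and 1 from a female mouse; WT 6, WT 7, WT 8 and Het 4 are the female libraries. Myt1l encodes a zinc finger transcription factor of neurons, and the mutant allele is a germline frameshift in a line kept by mating Het with wild-type mice, so it was present in all cells of a Het animal. A transcript with a frameshift can still be counted, so the level of Myt1l does not test the labels: over all nuclei it was 1419 ± 111 CPM (UMI counts scaled to a library total of 1000000; SD, n = 8) in WT and 1568 ± 52.9 CPM (SD, n = 4) in Het. The labels give the tissue as forebrain, whereas 1 passage of the study speaks of prefrontal cortex, which leaves the dissected area uncertain.

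In a neuron the α subunit of a sodium channel forms the pore that carries the upstroke of the action potential, and the β subunits are small membrane proteins that tune its gating and place it in the axon. Calcium channels have an α1 subunit as the pore, an intracellular β subunit that brings it to the membrane, and an extracellular α2δ subunit that raises its number at the surface and at release sites. The α1 genes give the L type (Cacna1c, Cacna1d, and outside the brain Cacna1s and Cacna1f), the P/Q, N and R types that drive transmitter release (Cacna1a, Cacna1b, Cacna1e), and the low-voltage T type (Cacna1g, Cacna1h, Cacna1i). Most Cacng proteins serve in the brain as auxiliary subunits of AMPA-type glutamate receptors, and only a few act on calcium channels in muscle. In the developing cortex Scn3a is known as an early sodium channel and Scn2a as the main sodium channel of young excitatory axons.

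The files held 126684 barcodes, of which 94672 nuclei were used, 55251 from WT and 39421 from Het libraries, and 0 barcodes were shared by libraries. Unique molecular identifiers (UMIs, tags that mark captured molecules) in these nuclei summed to between 9738897 and 24187559 per library. Nuclei were put into classes by marker genes, none of which is a channel gene of the family: a nucleus needed at least 2 markers of 1 class and more of them than of any other class. This gated 55793 nuclei into 11 classes and left 38879 (41.1%) in none. The classes used most were excitatory neurons (22317 nuclei), inhibitory neurons (12128) and astroglia (11407). Summed marker levels describe these classes and do not test them, since the same markers set the gates: the excitatory list stood at 2849 CPM in excitatory and 222 CPM in inhibitory nuclei, and the inhibitory list at 2032 CPM in inhibitory and 42.1 CPM in excitatory nuclei. A low level of excitatory markers was present everywhere, at 11.6% of the excitatory level in fibroblast nuclei, 17.1% in astroglia and 25.7% in microglia. Free RNA had not been subtracted from the counts.

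Over all nuclei the 40 genes together took 6465 CPM, or 0.647% of UMIs. Mean levels of 14 members reached 100 CPM or more. At the other end 9 members stayed under 3 CPM in every library, the highest value among them being 1.90 CPM. They were Cacna1s and Scn4a, the channels of skeletal muscle, Cacna1f, the channel of photoreceptors, Scn10a and Scn11a, sodium channels of sensory neurons, and Cacna2d4, Cacng6, Scn4b and Scn7a. In a sum over all nuclei, fewer nuclei of a class and less RNA per nucleus cannot be told apart, so levels are given below for sums over the nuclei of each class, in CPM of that class, as mean ± SD over the 12 libraries (n = 12). CPM was not divided by gene length. Per kilobase of annotated exon, Cacna2d1 led in excitatory nuclei at 112 CPM per kb, ahead of Cacnb4 at 48.6 and Cacna1c at 48.4 CPM per kb. In inhibitory nuclei Cacna2d3 led at 121 CPM per kb of exon, ahead of Cacna1c at 53.8 and Cacnb4 at 50.8 CPM per kb. Nuclear RNA also holds introns, and per kilobase of the whole gene Cacnb3 led in both classes (5.03 CPM per kb in excitatory and 3.97 in inhibitory nuclei), followed by Scn3a (3.73 and 3.71 CPM per kb).

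**Figure D1:**
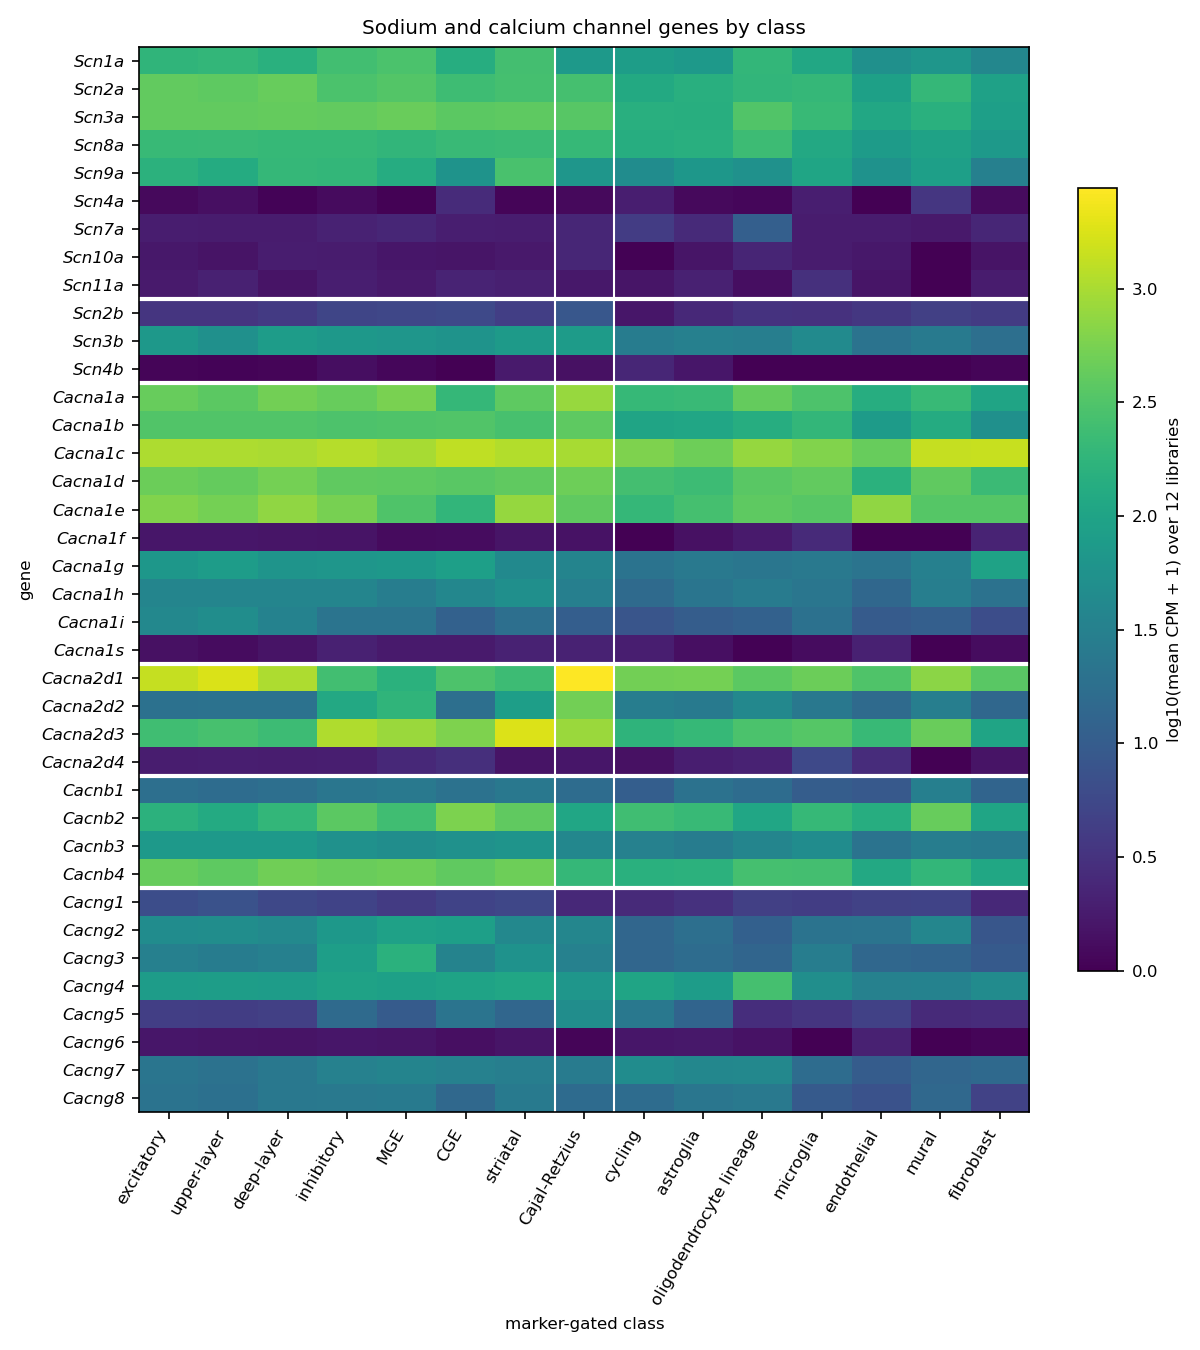
Heat map of the channel genes (rows, grouped by subunit) in 15 populations of nuclei (columns). Color gives log10(CPM + 1) of the mean over the 12 libraries. The α2δ rows change strongly between the neuron columns: Cacna2d1 reaches 2757 CPM in Cajal-Retzius and 1388 CPM in excitatory nuclei but 253 CPM in inhibitory nuclei, and Cacna2d3 the reverse in the last pair (241 and 1057 CPM).

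Excitatory nuclei held more RNA of Cacna2d1, Cacna1i and Scn2a, and inhibitory nuclei more of Cacna2d2, Cacna2d3, Cacng5 and Cacng3. Of 31 members tested, 7 were higher and 13 lower in excitatory than in inhibitory nuclei at an adjusted p under 0.05 and a log2 difference of at least 0.2 (edgeR's quasi-likelihood test with the library as a block, adjusted by Benjamini-Hochberg over 15032 genes). Among all genes tested 19% were higher and 19.7% lower by the same call, so calls were common in this comparison. The median log2 difference was 0.01 over the members and -0.00 over all genes. These differences are relative to TMM scaling, which sets most genes to no change on balance. With library size alone the median of all genes moved to -0.07 and the share of higher genes among all calls fell from 49.0% to 37.6%, while the members stayed at 7 higher and 13 lower.

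Among the sodium channel α subunits, 6 were tested, 1 was higher and 2 were lower in excitatory nuclei. Scn2a ran from 357 to 440.2 CPM with a median of 407 CPM in excitatory nuclei and from 253 to 314 CPM with a median of 289 CPM in inhibitory nuclei. Every excitatory library lay above every inhibitory one, and the log2 difference was 0.58 (SE 0.0399, adjusted p = 1.1e-10). Scn1a, whose channel is best known from interneurons, was lower in excitatory (175 ± 19.1 CPM) than in inhibitory nuclei (253 ± 25.9 CPM), with a log2 difference of -0.47 (SE 0.0593, adjusted p = 1.03e-06). Scn3a stood at 412 ± 22.8 CPM in excitatory and 410.4 ± 24.6 CPM in inhibitory nuclei and was not called. Scn8a, the channel of mature axon initial segments and nodes, was not called either (209 ± 10.3 and 203 ± 13.2 CPM). Scn9a, best known from sensory neurons, was not called (164 ± 22.2 and 188 ± 43.0 CPM).

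Sodium channel β subunits were low except for Scn3b, which stood at 66.8 ± 7.78 CPM in excitatory and 66.5 ± 7.10 CPM in inhibitory nuclei with no call. Scn2b was lower in excitatory (2.42 ± 0.822 CPM) than in inhibitory nuclei (4.24 ± 1.4 CPM; log2 difference -0.72, SE 0.168, adjusted p = 0.00127). Scn4b, whose protein is found in mature striatal and fast-spiking neurons, had 0.115 and 0.328 CPM, too few counts to be tested.

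Of 8 calcium channel α1 genes tested, 3 were higher and 0 lower in excitatory nuclei: Cacna1i, the L-type Cacna1d (464 ± 33.1 against 398 ± 27.4 CPM, log2 difference 0.29, SE 0.0412, adjusted p = 4.5e-06) and the R-type Cacna1e (618 ± 44.5 against 539.8 ± 86.9 CPM, log2 difference 0.27, SE 0.0637, adjusted p = 0.00127). Cacna1i, a T-type pore gene, ran from 27.1 to 60.0 CPM with a median of 37.3 CPM in excitatory and from 12.9 to 34.0 CPM with a median of 19.3 CPM in inhibitory nuclei. Its ranges overlapped between libraries, and the log2 difference was 1.09 (SE 0.0960, adjusted p = 5.67e-09). The most abundant pore gene by CPM, the L-type Cacna1c, was not called (1025 ± 36.7 and 1140.2 ± 129 CPM), nor was the P/Q-type Cacna1a (438 ± 70.7 and 434 ± 37.2 CPM). The N-type Cacna1b (325 ± 29.3 and 300.5 ± 24.9 CPM) passed the adjusted p but not the minimum difference, with a log2 difference of 0.18 (SE 0.0372, adjusted p = 0.00041). The T-type genes Cacna1g (65.6 ± 11.4 and 63.0 ± 9.82 CPM) and Cacna1h (35.7 ± 4.47 and 36.4 ± 5.15 CPM) were not called.

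The α2δ genes differed several-fold between both classes, in opposite directions. Of 3 tested, Cacna2d1 was higher and Cacna2d2 and Cacna2d3 lower in excitatory nuclei. Cacna2d1, whose protein binds gabapentin, ran from 1127 to 1673 CPM with a median of 1353 CPM in excitatory nuclei and from 193 to 359 CPM with a median of 254 CPM in inhibitory nuclei, with no overlap between libraries and a log2 difference of 2.54 (SE 0.0859, adjusted p = 1.15e-15). Cacna2d3, which lacks that binding, ran from 199 to 327 CPM with a median of 224 CPM in excitatory and from 762 to 1277 CPM with a median of 1064 CPM in inhibitory nuclei. The libraries of both classes were again apart, and the log2 difference was -2.07 (SE 0.0790, adjusted p = 7.68e-15). Cacna2d2, the second gabapentin-binding α2δ gene, ran from 14.1 to 26.3 CPM with a median of 17.9 CPM in excitatory and from 88.9 to 146 CPM with a median of 116 CPM in inhibitory nuclei, also without overlap, with a log2 difference of -2.61 (SE 0.0622, adjusted p = 7.14e-18). In build GRCm38 (mm10) Cacna2d1 is annotated on the plus strand at chr5:15934691-16374511 and Cacna2d3 on the minus strand at chr14:28904943-29721864. The span of Cacna2d3 overlaps 7 other annotated genes, 6 of them on the opposite strand, among them Lrtm1. The strand setting used in counting was not stated in the methods read here. Reads of the overlapping genes may thus be included.

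The promoters of these 2 genes are shown because the pair had the largest levels and opposite class patterns within the α2δ family. The 250 bases before the start are given 5′ to 3′ on the gene's own strand from RefSeq (GRCm38.p6), in lower case with each CG pair in capitals, for Cacna2d1 at chr5:15934441-15934690 (plus strand) and for Cacna2d3 at chr14:29721865-29722114 (minus strand).
Cacna2d1: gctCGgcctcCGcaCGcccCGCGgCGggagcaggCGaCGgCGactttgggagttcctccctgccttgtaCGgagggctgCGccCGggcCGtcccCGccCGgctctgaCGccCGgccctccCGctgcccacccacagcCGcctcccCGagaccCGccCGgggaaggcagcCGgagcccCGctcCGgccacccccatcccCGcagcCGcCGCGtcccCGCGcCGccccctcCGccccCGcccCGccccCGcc
Cacna2d3: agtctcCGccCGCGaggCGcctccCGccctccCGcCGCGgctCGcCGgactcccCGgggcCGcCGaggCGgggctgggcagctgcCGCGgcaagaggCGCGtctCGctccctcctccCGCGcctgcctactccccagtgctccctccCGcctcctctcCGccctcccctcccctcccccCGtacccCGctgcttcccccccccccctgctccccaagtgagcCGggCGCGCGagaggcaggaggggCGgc
Both are CG-rich: the Cacna2d1 sequence holds 36 CG pairs at a GC content of 82.4% and the Cacna2d3 sequence 30 CG pairs at 80%. The median over 32851 promoters of that length was 6 CG pairs, and 2.58% and 5.94% of promoters held as many as Cacna2d1 and Cacna2d3. The letters AAGTTT, the core sequence that zinc fingers of the Myt1 family bind, were searched on both strands. They were found in neither of the printed windows, in 12.8% of all promoters and in 3 of the 41 member promoters (7.32%; 30 members had a promoter in the table), those of Cacna1d, Cacna1e and Cacnb2.

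Of the 4 calcium channel β subunits, 1 was higher and 2 lower in excitatory nuclei. Cacnb2, a β subunit shared with the heart, ran from 125 to 224 CPM with a median of 155 CPM in excitatory and from 269 to 451 CPM with a median of 377 CPM in inhibitory nuclei, and the libraries of both classes did not overlap (log2 difference -1.15, SE 0.0802, adjusted p = 1.31e-10). The annotated span of Cacnb2 overlaps 15 other genes. Cacnb4, the most abundant β subunit gene, was not called (436 ± 25.7 and 455 ± 31.1 CPM). Cacnb3 was higher by 0.41 on the log2 scale and Cacnb1 was called with a log2 difference of -0.24. Cacnb1 was not called with at least 3 markers (-0.14, adjusted p = 0.370) or without the filter on low counts (-0.20, adjusted p = 0.0867).

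Among 7 Cacng genes tested, 6 were lower in excitatory nuclei and 1, Cacng1, was higher (5.59 ± 1.58 against 3.91 ± 1.76 CPM). Cacng3, an auxiliary subunit of AMPA receptors, ran from 13.1 to 49.9 CPM with a median of 29.3 CPM in excitatory and from 64.0 to 123 CPM with a median of 85.4 CPM in inhibitory nuclei. The excitatory libraries all lay below the inhibitory ones, and the log2 difference was -1.47 (SE 0.116, adjusted p = 1.04e-09). Cacng2, the gene for stargazin, stood at 45.8 ± 4.05 CPM in excitatory and 67.1 ± 16.7 CPM in inhibitory nuclei (log2 difference -0.43, SE 0.0787, adjusted p = 0.000111). Cacng5 stood at 3.35 ± 1.14 and 14.6 ± 5.94 CPM (log2 difference -1.99, SE 0.162, adjusted p = 1.58e-09). The other 3 called, Cacng7, Cacng8 and Cacng4, had log2 differences of -0.48, -0.22 and -0.20, the last at the minimum difference. Cacng8 was not called with DESeq2 (adjusted p = 0.0656), with at least 3 markers (0.0549), without the filter on low counts (0.138) or without Het 1 or Het 4, and Cacng4 fell below the minimum with doublets kept, with at least 3 markers, without the filter and without any 1 of 6 libraries (WT 1, WT 3, WT 4, WT 7, Het 1 or Het 2).

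Genes for partners of the channels were read against the share of all genes called between excitatory and inhibitory nuclei, 19% higher and 19.7% lower. Of 10 genes for sodium channel partners, 4 were higher (Ank2 at a log2 difference of 0.53, Nrcam at 0.38, Nfasc at 0.37 and Nedd4l at 0.26) and 2 lower (Fgf12 at -0.80 and Fgf11 at -0.49). Ank2, Nrcam and Nfasc belong to the scaffold of the axon, Nedd4l is a ubiquitin ligase, and Fgf11 and Fgf12 encode intracellular factors that bind sodium channels. The 4 genes tested of the sodium leak channel complex were all lower, Nalcn, its pore, by the most (log2 difference -0.91, SE 0.102, adjusted p = 2.28e-07). Of 14 genes listed for calcium channel partners 11 were tested, 1 was higher and 3 were lower, namely Rem2 (-1.05), Stac2 (-0.85) and Rims2 (-0.68), a share near that over all genes. Of 6 genes for AMPA receptor subunits and cornichons, 3 were higher and 2 lower, among them the subunit genes Gria2 (0.67) and Gria1 (-2.24).

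Within excitatory nuclei, those with upper-layer markers (8828 nuclei) held more Cacna2d1 and T-type pore RNA, and those with deep-layer markers (9112 nuclei) more of Scn9a, Scn3b, Cacnb2 and the R-type pore gene. The upper-layer list stood at 4074 CPM in upper-layer and 1133 CPM in deep-layer nuclei, and the deep-layer list at 1949 and 8211 CPM. Of 28 members tested, 6 were higher and 9 lower in upper-layer nuclei (edgeR), where 10.2% and 13.8% of all 12197 genes were. Cacna2d1 ran from 1467 to 2133 CPM with a median of 1703 CPM in upper-layer and from 854 to 1184 CPM with a median of 1064 CPM in deep-layer nuclei, and every upper-layer library lay above every deep-layer one (log2 difference 0.71, SE 0.0372, adjusted p = 1.93e-15). Cacna1i (47.9 ± 10.6 against 32.5 ± 7.71 CPM, log2 difference 0.57, SE 0.0626, adjusted p = 1.94e-08) and Cacna1g (79.9 ± 12.3 against 58.8 ± 11.3 CPM, log2 difference 0.45, SE 0.0645, adjusted p = 2.05e-06) were also higher in upper-layer nuclei, while Cacna1h, the other T-type gene, was not called. The remaining 3 higher were Cacna2d3, Scn1a and Cacng2, at log2 differences between 0.25 and 0.30. With at least 3 markers Cacna2d3 and Cacng2 were not called (adjusted p = 0.133 and 0.135). Cacna2d3 fell below the minimum difference with doublets kept, and Cacng2 without WT 1. In WT libraries Cacna2d3 averaged 269 CPM in upper-layer and 193 CPM in deep-layer nuclei, and in Het libraries 294 and 295 CPM. A difference of this layer pattern between genotypes was not tested.

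In deep-layer nuclei Scn9a was higher (194 ± 17.3 against 129 ± 24.9 CPM), with a log2 difference of upper minus deep of -0.63 (SE 0.0577, adjusted p = 4.67e-10). Scn3b (78.9 ± 8.14 against 52.7 ± 6.82 CPM, log2 difference -0.59, SE 0.0568, adjusted p = 1.13e-09) and Cacnb2 (186 ± 33.3 against 126 ± 28.0 CPM, log2 difference -0.59, SE 0.0750, adjusted p = 2.53e-07) followed. Cacna1e ran from 679.6 to 810.2 CPM with a median of 745 CPM in deep-layer nuclei and from 447 to 569 CPM with a median of 522 CPM in upper-layer nuclei, with no overlap (log2 difference -0.53, SE 0.0342, adjusted p = 2.02e-13). The other 5 lower in upper-layer nuclei were Cacna1a, Cacng8, Cacnb4, Cacna1d and Scn2a, with log2 differences from -0.44 to -0.21. Scn2a fell below the minimum without WT 3 or WT 7 and with at least 3 markers. Cacng8 was not called with at least 3 markers (-0.30, adjusted p = 0.228). Of the partners, 3 of 4 genes of the sodium leak complex were lower in upper-layer nuclei (Nalcn at a log2 difference of -0.68), as were 4 of 6 AMPA receptor genes (Gria3 at -1.24), beside 13.8% of all genes.

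Interneurons are born in the medial (MGE) or caudal (CGE) ganglionic eminence, and 3769 inhibitory nuclei carried MGE and 1121 carried CGE markers. The MGE list stood at 11506 CPM in MGE and 853 CPM in CGE nuclei, and the CGE list at 1496 and 32332 CPM. MGE nuclei held far more Cacna2d2, Cacng3 and Cacna1a, and CGE nuclei more Cacnb2, Cacng5 and Cacna2d1. Of 27 members tested, 12 were higher and 4 lower in MGE nuclei (edgeR), where 12.6% and 10.5% of 7686 genes were. The median log2 difference was 0.29 over the members and -0.00 over all genes.

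Cacna2d2 ran from 132 to 219.9 CPM with a median of 178 CPM in MGE and from 3.48 to 37.7 CPM with a median of 12.3 CPM in CGE nuclei, so that the libraries were far apart (log2 difference 3.45, SE 0.177, adjusted p = 1.99e-19). Cacng3 ran from 142 to 191 CPM with a median of 156 CPM in MGE and from 16.6 to 68.1 CPM with a median of 28.5 CPM in CGE nuclei (log2 difference 2.25, SE 0.152, adjusted p = 9.53e-16). The P/Q-type pore gene Cacna1a ran from 479 to 652 CPM with a median of 568 CPM in MGE and from 136 to 279.8 CPM with a median of 191 CPM in CGE nuclei (log2 difference 1.58, SE 0.0883, adjusted p = 2.77e-18). For each of these 3 genes every MGE library exceeded every CGE library. Sodium channel α subunits went the same way: 4 of 5 tested were higher in MGE nuclei, Scn9a (134 ± 16.7 against 56.9 ± 17.5 CPM, log2 difference 1.30), Scn1a (289.5 ± 36.5 against 137 ± 28.4 CPM, 1.13), Scn2a (0.54) and Scn3a (0.29), and 0 were lower. The other 5 higher were Cacna1i, Cacna1e, Cacng8, Cacna2d3 and Cacnb4, with log2 differences from 0.29 to 0.87. Of these, Cacna1i and Cacng8 were not called with DESeq2 (adjusted p = 0.0904 and 0.0544) or with doublets kept (0.113 and 0.0581), nor Cacng8 with library size alone as the scale (0.0540). The call of Cacna1i was also lost without WT 3, WT 4, WT 5, WT 6 or WT 7, and that of Cacng8 in 8 of 12 omissions, the exceptions being WT 5 and WT 8 and both Het 1 and Het 2.

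In the other direction Cacnb2 ran from 466 to 772 CPM with a median of 579.8 CPM in CGE nuclei and stood at 244 ± 36.8 CPM in MGE nuclei (log2 difference -1.22, SE 0.0765, adjusted p = 9.82e-17). Cacna2d1 stood at 298 ± 64.5 CPM in CGE and 155 ± 41.2 CPM in MGE nuclei (log2 difference -0.88, SE 0.0927, adjusted p = 3e-10), and Cacna1c was lower in MGE nuclei by a log2 difference of -0.32. Cacna1c was not called with at least 3 markers (-0.08, adjusted p = 0.770) or without the filter on low counts (-0.17, adjusted p = 0.0747). Cacng5 had the largest adjusted p of the 4 (a median of 16.2 against 7.84 CPM, log2 difference -1.04, SE 0.336, adjusted p = 0.0181). Its adjusted p rose to 0.0617 without WT 5 and to similar values without WT 3 or WT 8. Of the partners tested, beside 12.6% of all genes higher and 10.5% lower, 2 of 10 for sodium channels were higher (Fgf14 at 1.32) and 3 lower (Nrcam at -0.69, Nedd4l at -0.40 and Fgf13 at -0.25). Of 8 for calcium channels 3 were higher and 1 lower (Cachd1 at -1.55), of 4 sodium leak genes 2 were higher and 0 lower, and of 5 AMPA receptor genes 3 were higher (Gria1, Gria3 and Gria4 at 2.83, 2.65 and 1.38) and 0 lower.

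Striatal projection neurons, the GABA neurons of the striatum, were marked by 13 genes in 3704 nuclei, and were set against the 4890 nuclei with MGE or CGE markers, called cortical interneurons here for their class although some of them may lie outside the cortex. The striatal list stood at 4924 CPM in striatal and 585 CPM in interneuron nuclei. Striatal nuclei held more Cacna1e, Scn9a and Cacna2d3, and interneurons more Cacng3, Cacng2 and Cacna1g. Of 28 members tested, 11 were higher and 6 lower in striatal nuclei (edgeR), where 17.4% and 16.2% of 10179 genes were.

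The R-type pore gene Cacna1e ran from 557 to 867 CPM with a median of 799.9 CPM in striatal and from 245 to 351 CPM with a median of 296 CPM in interneuron nuclei without overlap (log2 difference 1.45, SE 0.0617, adjusted p = 1.56e-19). Scn9a stood at 286 ± 66.1 CPM in striatal and 119.8 ± 15.0 CPM in interneuron nuclei (log2 difference 1.28, SE 0.0791, adjusted p = 2.67e-15). Cacna2d3 ran from 999 to 2188 CPM with a median of 1809.8 CPM in striatal and from 590.2 to 912 CPM with a median of 808 CPM in interneuron nuclei (log2 difference 1.18, SE 0.0742, adjusted p = 4.19e-15). Also higher were Cacna1h, Cacnb2, Cacnb3, Cacna2d1, Scn3b, Cacng4 and Scn8a, with log2 differences from 0.22 to 0.76. With at least 3 markers Cacnb3 (log2 difference 0.005, adjusted p = 0.991), Cacng4 (0.20, adjusted p = 0.235) and Scn3b (0.23, adjusted p = 0.154) were not called. Cacnb3 and Scn3b were also not called without the filter on low counts (adjusted p = 0.0565 and 0.0692). Cacna2d1 fell below the minimum difference with doublets kept, and Scn8a without the filter or without WT 5.

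Cacng3 was lower in striatal (56.5 ± 17.8 CPM) than in interneuron nuclei (136 ± 14.5 CPM; log2 difference -1.38, SE 0.0939, adjusted p = 3.43e-14), as was Cacng2 (39.3 ± 10.2 against 91.7 ± 15.5 CPM; log2 difference -1.31, SE 0.0876, adjusted p = 1.98e-14). The T-type Cacna1g was lower as well (42.3 ± 14.2 against 70.8 ± 9.49 CPM; log2 difference -0.83, SE 0.0911, adjusted p = 3.44e-09). The other 3 were Cacna2d2, Cacna1a and Scn2a, with log2 differences from -0.74 to -0.26. Among the partners, 3 of 4 sodium leak genes were higher in striatal nuclei (17.4% of all genes were; Nalcn at a log2 difference of 1.30), whereas Nalcn was lower in excitatory than in inhibitory nuclei.

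**Figure D2:**
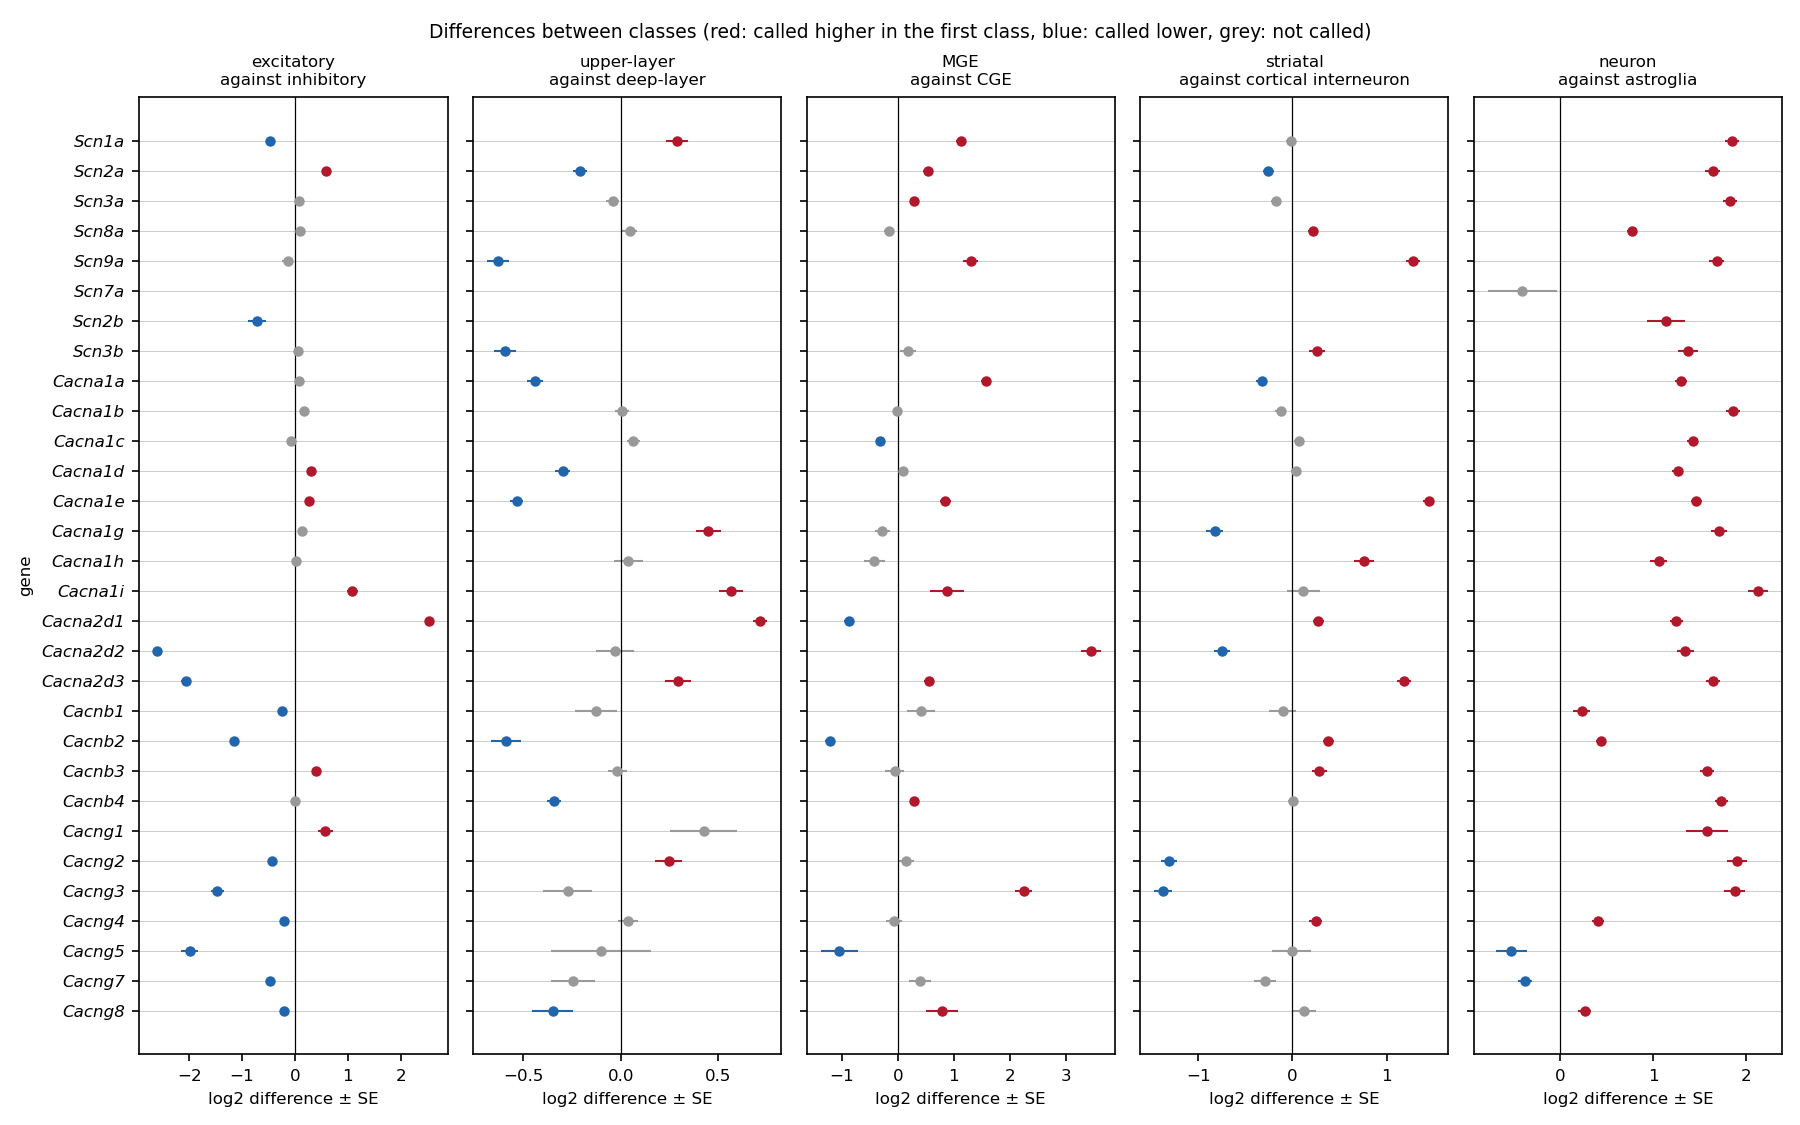
Log2 difference of channel genes in 5 class comparisons (1 panel each), with bars of 1 SE from edgeR over 12 libraries. Red points were called higher in the first class of the panel, blue points lower, and grey points were not called. The α2δ genes are among those far out: Cacna2d1 at 2.54 and Cacna2d2 at -2.61 between excitatory and inhibitory nuclei, and Cacna2d2 at 3.45 between MGE and CGE nuclei.

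Against astroglia, neurons (excitatory and inhibitory nuclei together) were higher for most of the family. Of 32 members tested, 29 were higher and 2 lower in neurons (edgeR), where 31.4% of 16572 genes were higher and 34.7% lower, and the median log2 difference was 1.36 over the members and -0.04 over all genes. All 8 α1 genes tested, all 3 α2δ, all 4 calcium channel β and all 3 sodium channel β genes were among the higher ones by this fit. For Cacnb1 and Cacng8 the call was made with TMM, RLE and DESeq2 scaling, while their mean CPM did not differ that way: Cacnb1 stood at 18.4 ± 2.76 CPM in neurons and 18.7 ± 4.03 CPM in astroglia, and Cacng8 at 20.9 ± 2.61 and 21.1 ± 4.28 CPM, higher in neurons in 6 and 5 of the 12 libraries. With library size alone as the scale the median of all genes moved to -0.33 and the share of higher genes among all calls from 47.5% to 27.3%; 25 members then stayed higher and 2 lower, and Cacnb1, Cacnb2, Cacng4 and Cacng8 were no longer called. The largest differences were those of Cacna1i (log2 difference 2.13, SE 0.104, adjusted p = 1.2e-13), Cacng2 (1.90, SE 0.107, adjusted p = 1.04e-12) and Cacng3 (1.88, SE 0.112, adjusted p = 2.74e-12). The genes lower in neurons were Cacng7 (24.2 ± 2.21 CPM in neurons, 38.7 ± 5.71 CPM in astroglia; log2 difference -0.37, SE 0.0721, adjusted p = 0.000102) and Cacng5 (log2 difference -0.52, SE 0.168, adjusted p = 0.00948), and with a gate of at least 3 markers Cacng5 was not called (adjusted p = 0.661). Scn7a, a sodium channel relative without voltage gating, was tested and not called.

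The astroglial level of a channel gene was not zero. Over the 26 members at 10 CPM or more in neurons, the median level was 45.2% of the neuron level in astroglia, 62.5% in the oligodendrocyte lineage, 31.4% in endothelial and 25.7% in fibroblast nuclei, beside 24.6%, 17.1%, 21.2% and 16.6% for the summed excitatory markers, also as shares of their neuron level. A level of a neuronal gene in these nuclei is read against that background, which is only a rough guide. The gate left out nuclei with as many excitatory markers as markers of their own class, and it used no channel gene. The marker shares may thus be too low as a background for channel genes. The part of the gate in this gap was not tested. These 26 members were chosen by their neuron level, so low shares in other classes follow in part from the choice. Members low in neurons, such as Cacng5 and Scn7a, are not among them. Some members exceeded the neuron level in a non-neuronal class. Cacng4 stood at 262 ± 35.0 CPM in the oligodendrocyte lineage and 84.7 ± 7.05 CPM in neurons. Cacna1c, the L-type pore of smooth muscle, stood at 1362 ± 315 CPM in mural and 1420.4 ± 136 CPM in fibroblast nuclei against 1061 ± 49.7 CPM in neurons. Cacna1e reached 746 ± 153 CPM in endothelial nuclei against 595 ± 40.7 CPM in neurons, and Cacna1g 94.9 ± 18.2 CPM in fibroblast nuclei against 64.7 ± 9.68 CPM. Scn7a, under 3 CPM in every library over all nuclei, stood at 9.98 ± 7.07 CPM in the oligodendrocyte lineage. In microglia 0 of the 26 members exceeded the neuron level, a count to which the limit of that choice applies. These levels are descriptions, and only astroglia were tested against neurons.

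Cajal-Retzius cells, the early reelin neurons of the cortical surface, stood apart among neurons by the α2δ genes Cacna2d1 and Cacna2d2 (975 nuclei). Cacna2d1 ran from 1737 to 3235 CPM with a median of 2913 CPM in them, the highest class mean of this gene. Cacna2d2 ran from 382 to 578 CPM with a median of 523 CPM, against 51.1 ± 11.2 CPM in excitatory and inhibitory nuclei together and 177 ± 22.0 CPM in MGE nuclei. Cacna1a stood at 808 ± 113 CPM and Cacng5 at 47.0 ± 19.4 CPM, while Cacnb4 was at 195 ± 38.8 CPM, below its level in excitatory nuclei. These values are given as levels, with no test.

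Scn2a and Scn3a lie side by side in a cluster of 5 sodium channel genes on chromosome 2 (chr2:65457118-66784914), Scn2a on the plus strand and Scn3a on the minus strand, and the ratio of their counts was taken within each library. The ratio does not depend on library scaling but is not corrected for gene length, so its order between classes can be read and its distance from 1 cannot. It was 0.997 ± 0.0847 in excitatory and 0.704 ± 0.0636 in inhibitory nuclei (SD, n = 12). Within excitatory nuclei it was 1.06 in deep-layer and 0.944 in upper-layer nuclei, and within inhibitory nuclei 0.749 in MGE, 0.644 in CGE and 0.677 in striatal nuclei. Among other classes it was 0.577 in the oligodendrocyte lineage, 1.02 in astroglia and 1.10 in fibroblasts.

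By genotype the excitatory ratio ran from 0.915 to 1.15 in WT libraries with a median of 0.982, and was 0.983, 0.948, 0.855 and 1.04 in Het 1 to Het 4. Het 3 lay below every WT library and the others within the WT range. The means were 1.02 ± 0.0852 (SD, n = 8) and 0.957 ± 0.0783 (SD, n = 4), a log2 difference of -0.09, with p = 0.257 in a two-sided exact permutation test that can reach 0.00202 at the lowest with these group sizes (495 assignments of libraries to genotypes). In inhibitory nuclei the means were 0.704 ± 0.0775 and 0.704 ± 0.0287, and the exact permutation test gave p = 0.952.

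**Figure D3:**
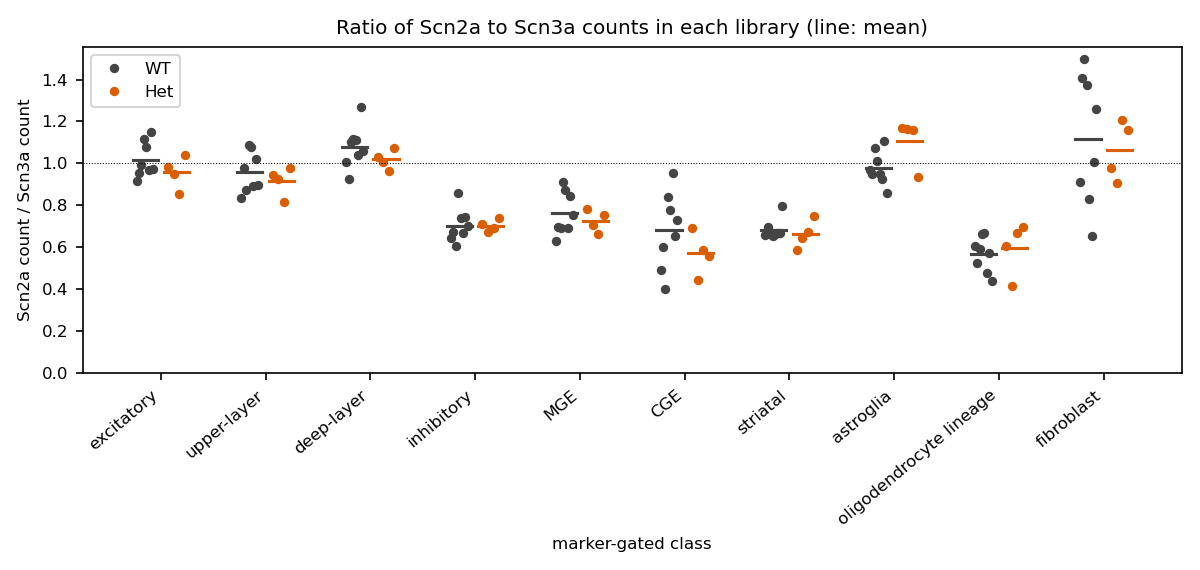
Ratio of Scn2a to Scn3a counts (vertical axis, no unit) in each of the 12 libraries for 10 classes of nuclei. Grey points are WT and orange points Het libraries, the line is the mean, and the dotted line marks a ratio of 1. The inhibitory classes lie below 1 on average (0.704 over inhibitory nuclei), and Het points fall among the WT points in excitatory and inhibitory nuclei except for Het 3 in excitatory nuclei (0.855).

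Het was then compared with WT in the same sums, with genotype as the only term. Counts of called members were 0 of 38 over all nuclei, 0 of 30 in excitatory and 0 of 30 in inhibitory nuclei with edgeR, where 0% of 20110, 0% of 13907 and 0% of 12197 genes were called. DESeq2 called 0 members over all nuclei (0.194% of genes), 1 in excitatory nuclei (Cacna2d3; 0.381% of genes) and 0 in inhibitory nuclei (0.0328% of genes). At an unadjusted p under 0.05 there were 9 members over all nuclei (2 higher and 7 lower in Het; 23.7% of members against 10.1% of all genes), 5 in excitatory nuclei (16.7% against 11.3%) and 4 in inhibitory nuclei (13.3% against 7.90%). The median log2 difference of the members was -0.05, -0.06 and 0.01 in these 3 sums and -0.00 over all genes in each. Members whose Het and WT libraries did not overlap numbered 0 of 38 over all nuclei (0.825% of all genes), 2 of 30 in excitatory nuclei (0.791%) and 0 of 30 in inhibitory nuclei (0.582%). Among them Scn8a was lower in Het by value. Scn8a ran from 208 to 237 CPM with a median of 209 CPM in WT and was 206, 204, 192 and 203 CPM in Het.

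Fitted class by class, 1 of 294 pairs of member and class was called in 15 classes (0.017% of 87991 pairs over all genes), namely Cacna2d3 in deep-layer nuclei. At an unadjusted p under 0.05 there were 22 member pairs (7.48%, against 6.32% of all gene pairs). In deep-layer nuclei 6 of 11035 genes (0.0544%) were higher in Het by this call, Cacna2d3 among 27 members tested, and 0 genes were lower. Deep-layer Cacna2d3 ran from 165 to 217 CPM with a median of 192 CPM in WT and was 253, 361, 351 and 214 CPM in Het 1 to Het 4. Het 2 and Het 3 were high and Het 1 above every WT library, while Het 4, the female Het library, lay within the WT range. The means were 193 ± 17.7 CPM (SD, n = 8) and 295 ± 72.5 CPM (SD, n = 4), and edgeR gave a log2 difference of 0.60 (SE 0.110, adjusted p = 0.0458).

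The call depended on single libraries. It was lost without any 1 of 10 of the 12 libraries, with log2 differences from 0.49 to 0.73 over all 12 omissions and adjusted p between 0.000624 (without Het 4) and 0.479, and apart from the omission of Het 4 it held without WT 2 (adjusted p = 0.0462). It held among male libraries alone (log2 difference 0.70, adjusted p = 0.00487) and with sex as a covariate (0.56, adjusted p = 0.0474). With all libraries it also held with DESeq2 (0.60, adjusted p = 0.00272), RLE size factors (0.60, adjusted p = 0.0434) and doublets kept (0.65, adjusted p = 0.0301). Without the filter on low counts it held as well (0.60, adjusted p = 2.4e-09). It was lost with a gate of at least 3 markers (0.44, adjusted p = 0.372) and with the replicate number as a block. Summed lists of D1, striatal and inhibitory markers, from classes in which Cacna2d3 is high, were read beside its deep-layer level, as was the D2 list. In deep-layer nuclei the summed D1 list (6 markers, 1 at 0) ran from 22.8 to 97.4 CPM in WT with a median of 44.7 CPM and was 54.9, 159, 123 and 55.1 CPM in Het 1 to Het 4. The inhibitory list (11 markers, 0 at 0) ran from 19.0 to 56.9 CPM in WT with a median of 39.2 CPM and was 46.8, 77.7, 101 and 54.8 CPM in Het. The striatal list (13 markers, 0 at 0), which includes genes that deep-layer neurons also express, ran from 520.2 to 647 CPM in WT and was 619, 863, 737 and 549.9 CPM in Het. Het 2 and Het 3 were the highest libraries for these 3 lists as for Cacna2d3. Het 1, above every WT library for Cacna2d3, lay within the WT range for these 3 lists. The D2 list (6 markers, 0 at 0) ran from 5.03 to 15.1 CPM in WT with a median of 6.15 CPM. It was 11.8, 12.4, 8.01 and 12.5 CPM in Het, all within the WT range and above the WT median. In upper-layer nuclei, where Cacna2d3 was not called, the inhibitory list ran from 8.66 to 48.6 CPM in WT. It was 23.6, 47.9, 68.6 and 45.8 CPM in Het 1 to Het 4 there. In the 2497 deep-layer nuclei without any UMI of an inhibitory or striatal marker the log2 difference was 0.54 (SE 0.177), with an adjusted p of 0.348. The part of these other cells in the Het value was not tested beyond this.

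In the other classes of these 15 Cacna2d3 was not called with the filter on low counts. Without that filter Cacna2d3 was also called in cycling nuclei (edgeR, log2 difference 0.90, adjusted p = 0.000584), where 0.206% of all gene and class pairs were called. Its log2 difference of Het minus WT was positive in 9 of 15 classes, with a range from -0.56 to 1.00, and was 0.14 in upper-layer and -0.05 in striatal nuclei. Over excitatory nuclei it ran from 199 to 257 CPM with a median of 212 CPM in WT and was 269, 327, 324 and 222 CPM in Het, with a log2 difference of 0.38 (SE 0.0922, adjusted p = 0.195). There it was called with DESeq2 (0.38, adjusted p = 0.0313). With edgeR it was called in male libraries alone (0.45, adjusted p = 0.0284), without the filter (0.39, adjusted p = 0.0161) and without Het 4 (0.49, adjusted p = 0.00479). The shares of all genes called under these settings are given below. In inhibitory nuclei, where its level is higher, it ran from 762 to 1277 CPM with a median of 1052 CPM in WT and was 1054, 1189, 1052 and 1187 CPM in Het, all within the WT range. In excitatory nuclei the inhibitory list ran from 15.6 to 48.6 CPM in WT and was 34.5, 60.4, 85.2 and 49.4 CPM in Het. The D1 list ran from 16.2 to 59.4 CPM in WT and was 27.0, 75.3, 66.7 and 44.9 CPM in Het, while the D2 list was highest in Het 4 (11.9 CPM). The part of such cells in the excitatory values was not tested.

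Cacna1a was lower in Het by value in 14 of 15 classes, which share their libraries and are not independent. By value Cacna1c was also lower in 13 and Cacna1d in 12 of 15, while Cacna1e was higher in 12 and Cacnb2 in 11 of 15. Cacna1a was called in none of these classes with all libraries and the filter on low counts. Without that filter Cacna1a was called in upper-layer nuclei (edgeR, log2 difference -0.38, adjusted p = 0.0233), where 0.206% of all gene and class pairs were called. Over all nuclei it ran from 371 to 506 CPM with a median of 421 CPM in WT and was 362, 334, 339.8 and 392 CPM in Het, with a log2 difference of -0.31 (SE 0.0838, adjusted p = 0.366). In excitatory nuclei it ran from 405 to 542 CPM with a median of 448 CPM in WT and was 376, 332, 339.9 and 432 CPM in Het. Het 1, Het 2 and Het 3 lay below every WT library and Het 4 did not (log2 difference -0.36, SE 0.10, adjusted p = 0.239).

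Leaving out Het 4 changed the excitatory result. Then 4 of 31 members were called, where 2.37% of 14112 genes were called: Cacna2d3 (log2 difference 0.49, adjusted p = 0.00479), Cacna1a (-0.44, adjusted p = 0.0312), Cacng3 (-0.86, adjusted p = 0.0372) and Scn9a (-0.34, adjusted p = 0.0451). Excitatory Cacng3 ran from 18.6 to 49.9 CPM with a median of 31.9 CPM in WT and was 18.9, 20.9, 13.1 and 49.1 CPM in Het, and Scn9a ran from 146 to 191 CPM with a median of 173 CPM in WT and was 144, 142, 120.0 and 193 CPM in Het. Het 4 lay near the top of the WT range for Cacng3 and above it for Scn9a, and the other 3 Het libraries lay near or below the lower end of that range. Het 4 is also the 1 female Het library, so that a sex difference and a difference of that animal cannot be told apart.

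The mix of layers among excitatory nuclei also varied between libraries. Deep-layer nuclei made up 43.3% to 70.8% of the upper- and deep-layer nuclei in WT libraries (median 53.8%), and 32.2%, 38.1%, 45.1% and 63.1% in Het 1 to Het 4. Het 1 and Het 2 lay below every WT library, and Het 3 and Het 4 within their range. Cacna1a and Scn9a are higher in deep-layer nuclei. The order of libraries differed between layer share and gene level. Het 3 had the lowest excitatory Cacng3 and Scn9a, and WT 4, with the lowest deep-layer share in WT (43.3%), had 540 CPM of excitatory Cacna1a. Within upper-layer nuclei without Het 4, Cacng3 (log2 difference -1.22, adjusted p = 0.0203) and Cacna1a (-0.48, adjusted p = 0.0403) were called lower in Het by edgeR, where 1.22% of genes were called, and Scn9a was not (-0.41, adjusted p = 0.147). Within deep-layer nuclei without Het 4 these 3 genes were not called, with log2 differences of -0.39 for Cacng3, -0.28 for Cacna1a and -0.11 for Scn9a (adjusted p = 0.571, 0.312 and 0.746). With Het 4 included, none of the 3 was called in either layer by edgeR with the filter on low counts. Without that filter Cacng3 (log2 difference -0.67, adjusted p = 0.00632) and Cacna1a (-0.38, adjusted p = 0.0233) were called lower in upper-layer nuclei. Over all genes and classes 0.206% of pairs were called without the filter. The part of the layer mix in the values over excitatory nuclei was not tested beyond this.

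Cacng2 was lower in Het by value over all nuclei, running from 40.5 to 48.9 CPM with a median of 45.4 CPM in WT against 41.4, 42.0, 39.8 and 33.0 CPM in Het (log2 difference -0.23, SE 0.0677, adjusted p = 0.366). In inhibitory nuclei it ran from 60.5 to 107 CPM with a median of 70.2 CPM in WT and was 60.5, 44.3, 55.8 and 49.1 CPM in Het, with a log2 difference of -0.49 (SE 0.127, adjusted p = 0.362). Without the filter on low counts edgeR called Cacng2 lower in Het there (log2 difference -0.48, adjusted p = 0.00174). Cacna1e went the other way in inhibitory nuclei: it ran from 348 to 579 CPM with a median of 530.1 CPM in WT and was 556, 671, 578 and 639 CPM in Het (log2 difference 0.27, SE 0.108, adjusted p = 0.588). Striatal markers moved with these values in inhibitory nuclei. The summed striatal list (13 markers, 0 at 0) ran from 776 to 2642 CPM in WT with a median of 1846 CPM and was 2209, 2768, 2292 and 2682 CPM in Het, all above the WT median, and striatal nuclei are lower in Cacng2 and higher in Cacna1e than interneurons. Within striatal nuclei the log2 differences were -0.22 (SE 0.153, adjusted p = 0.976) for Cacng2 and 0.10 (SE 0.0998, adjusted p = 0.985) for Cacna1e, and within MGE nuclei -0.28 (SE 0.128, adjusted p = 0.735) and 0.12 (SE 0.0882, adjusted p = 0.886). By value the differences of both genes were smaller within these subclasses than over inhibitory nuclei. The part of striatal nuclei in the values over inhibitory nuclei was not tested further.

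Cacnb1, a β subunit gene known first from skeletal muscle, was lower in Het by value in all 3 sums and called in none. Over all nuclei it ran from 15.9 to 21.6 CPM with a median of 18.6 CPM in WT and was 17.7, 14.9, 15.9 and 16.4 CPM in Het (log2 difference -0.24, SE 0.0778, adjusted p = 0.375). The log2 difference was -0.29 (SE 0.107, adjusted p = 0.33) in excitatory nuclei. In inhibitory nuclei it ran from 18.9 to 34.0 CPM with a median of 21.9 CPM in WT and was 19.1, 16.9, 17.3 and 17.6 CPM in Het (log2 difference -0.37, SE 0.135, adjusted p = 0.56). The class fits use the same libraries, so their values are not independent of each other.

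The genotype effect itself was compared between excitatory and inhibitory nuclei, with a term for class by genotype. edgeR called 0 of 31 members (0% of 15032 genes) and DESeq2 0 (0.00665%), with 6 members (19.4%) and 1360 genes (9.05%) at an unadjusted p under 0.05 with edgeR. The smallest p was that of Cacng2 (log2 difference of effects 0.43, SE 0.134, adjusted p = 0.284). For Cacna2d3 it was 0.23 (SE 0.153, adjusted p = 0.743), so by this fit neither effect was shown to differ between both neuron classes. Without the filter on low counts edgeR called this term for Cacng2 (0.43, adjusted p = 0.0446), Cacnb2 (-0.36, adjusted p = 0.0288) and Scn9a (-0.43, adjusted p = 0.00471). Of the listed channel partners, 0 were called by edgeR in any comparison of Het with WT.

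**Figure D4:**
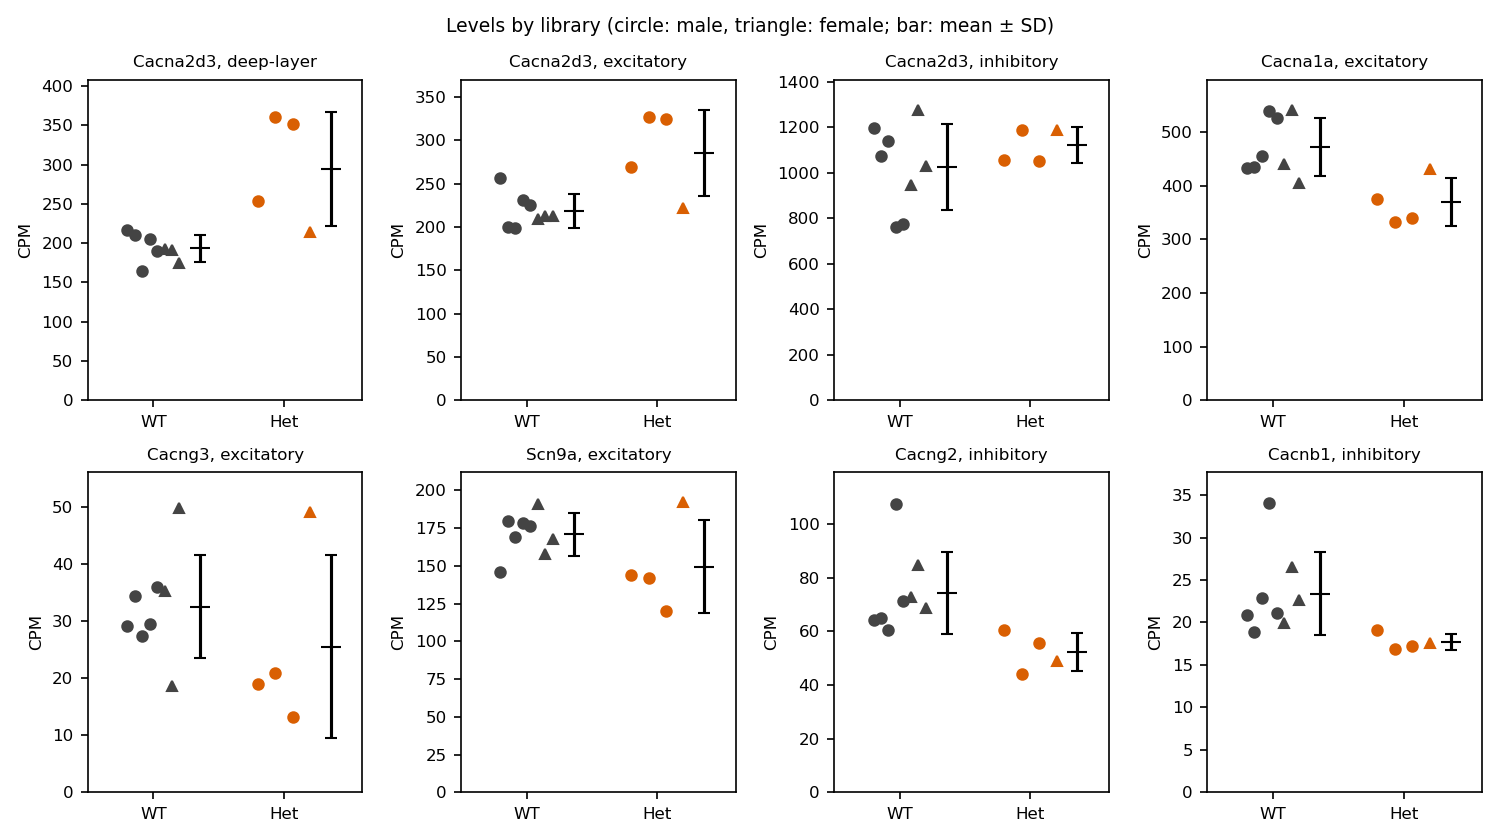
CPM of 6 channel genes in 8 combinations of gene and class, WT on the left and Het on the right of each panel. Points are libraries (circles male, triangles female) and bars show mean ± SD. In the deep-layer Cacna2d3 panel the Het points at 361 and 351 CPM lie far above the WT range, and the female Het point at 214 CPM lies within it.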

How the data were processed

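With the ScaleRna workflow the authors mapped reads to mm10, called nuclei and counted UMIs (Seurat 4.3.0 is named in the submitters' processing notes). The deposited values are expected counts, not normalized, since a UMI shared by more than 1 gene was split. Library UMIs ranged from 15439429 to 40784144. Here nuclei were kept by the study's limits on UMIs (800 to 6000), on genes (300 to 3000), on the mitochondrial share (1% or less) and on log genes per log UMIs (0.9 or more), less the 5% of barcodes per library with the highest share of simulated doublets among their neighbours (3404 of 98076 removed). Nuclei were gated by the number of markers detected from 18 lists, with a threshold set after the sizes of the gated classes had been seen.

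Counts were summed per library and class and rounded, since the design had assumed whole counts, and tested with edgeR 4.0.16 (R 4.3.3) on all genes passing filterByExpr, with TMM and Benjamini-Hochberg adjustment; classes with library as a block, genotypes with genotype alone. Libraries with fewer than 10 nuclei of a class were left out of that class's fit, and printed levels average all 12 libraries, for mural nuclei including 3 with 4 to 8 nuclei. DESeq2 1.42.0 was an alternative, and the pipeline was tested on simulated data. Gene positions are from GENCODE M21. Replicates are separate animals.

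Named members are those called between genotypes, the 3 with the largest called difference in each direction of a class comparison, the genes of the main forebrain channels, and the 3 with the smallest p per genotype comparison. Members and lists were chosen with earlier results of these data known. Members printed outside these rules (Cacng1, Cacng4, Cacng8, Cacnb3 and Scn7a among them) were chosen after their values were seen. Some genes that these rules would name are not reported here, and they stay in the counts.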

Additional observations from a re-analysis of the deposited data

How the results depend on the processing

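The counts of members called between classes stayed within 1.5 times of those reported under each alternative and each omission of a library. Over omissions they were 18 to 20 between excitatory and inhibitory nuclei, 14 to 16 between layers, 13 to 16 between MGE and CGE, 16 to 18 between striatal and interneuron nuclei and 31 between neurons and astroglia, and the other alternatives went down to 16, 11, 12, 14 and 27. Of all 99 class calls of members, 21 were tested and not made under at least 1 setting, 4 others were not tested with at least 3 markers, and 0 turned. For the 29 differences named from the class comparisons, 516 of 520 recomputed values were called in the same direction, 4 were not called and 0 reversed. Those 4 were Cacng5 between neurons and astroglia with at least 3 markers (log2 difference -0.09), and Cacng5 between MGE and CGE without WT 3, WT 5 or WT 8.

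Between genotypes the counts were small and moved with the settings. Without the filter on low counts 2 members were called in excitatory nuclei (0.499% of all genes), 1 in inhibitory nuclei (0.675%), 4 pairs of member and class (0.206%) and 3 for class by genotype (0.954%). DESeq2 called 1 member in excitatory nuclei (0.381%). Male libraries alone, an alternative chosen after seeing the data, gave 3 members in excitatory nuclei (1.29%) and 2 pairs (0.166%), and at least 3 markers gave 0 pairs (0.0162%). Over omissions of 1 library the calls ranged from 0 to 4 in excitatory nuclei (4 without Het 4, where 2.37% of genes were called) and from 0 to 3 pairs (3 without Het 4, 0.263%), and were 0 over all nuclei, in inhibitory nuclei and for class by genotype. The log2 difference of the inhibitory Scn2a to Scn3a ratio was 0.00680 and turned sign with doublets kept (-0.00691) and in male libraries (-0.0136), and ranged from -0.0230 to 0.0488 over omissions; the excitatory one ranged from -0.130 to -0.0345. The cause of these changes was not tested. With at least 3 markers the D1 and D2 classes could not be fitted.

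Replicate numbers, given within each sex, were shared by WT and Het samples, but 2 of 4 same-numbered pairs had deviations correlated over 0.1 (-0.186, 0.0807, 0.205 and 0.462 over 10273 genes), and Het 4 alone correlated best with its own number, so the samples were taken to share only a number. With the replicate block the count over all nuclei, in excitatory and in inhibitory nuclei was 0 and that of pairs 1 (0.106% of 111327 pairs over all genes). That pair was Cacna1e in mural nuclei (log2 difference 1.89, adjusted p = 0.0482) and not Cacna2d3 in deep-layer nuclei (0.55, adjusted p = 0.0682). Without the block edgeR gave mural Cacna1e a log2 difference of 0.75 (adjusted p = 0.533), so the call rests on the block. With the block the ratio differed by -0.00150 in excitatory (exact permutation p = 1) and 0.12 in inhibitory nuclei (exact permutation p = 0.25). Only the 4 same-numbered pairs enter this test, and so few pairs cannot give a low p, so no conclusion is drawn from it. Low depth limits the rarer classes: D2 and mural nuclei were fitted with 5 WT libraries and D1 nuclei with 7.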

Other observations

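Cacng genes lie in groups on the chromosomes. On chromosome 11 Cacng1, Cacng4 and Cacng5 lie within 212 kb, and Cacng1 was higher and Cacng4 and Cacng5 were lower in excitatory than in inhibitory nuclei (edgeR, log2 differences 0.57, -0.20 and -1.99). On chromosome 7 Cacng7 and Cacng8 were both lower in excitatory nuclei (-0.48 and -0.22). Cacng4 had its highest class mean in the oligodendrocyte lineage (262 ± 35.0 CPM, SD, n = 12) and Cacng1 stayed below 10 CPM as a mean in each class. These positions and values are descriptions, and neighbours were not tested against other gene pairs.

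Between neurons and astroglia 31.4% of all genes tested were higher and 34.7% lower in neurons. Of 10 sodium channel partners 9 were higher in neurons and 0 lower, and all 4 sodium leak genes tested and all 6 AMPA receptor genes were higher. Among 12 calcium channel partners tested, 9 were higher and 2 lower, namely Gem, an inhibitor of calcium channels (log2 difference -4.05, SE 0.362, adjusted p = 2.3e-09), and Cachd1, a relative of the α2δ proteins (-1.72, SE 0.0907, adjusted p = 3.64e-13). With library size alone as the scale all differences of this comparison fall by about the shift of the median of all genes (to -0.33), so small ones are less certain. These counts were made with edgeR.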
